A study of Rattus norvegicus with 14 samples.

Results

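The inflamed and the uninflamed regions of the same colons were compared in rats with colitis induced by 2,4,6-trinitrobenzenesulfonic acid (TNBS), a hapten that binds to proteins of the gut wall and provokes an immune response there. Each of 6 male Wistar rats, numbered 218 to 223, gave a pair of libraries, 1 per region, so that 12 of the 14 libraries of the study entered the comparison, paired by the animal number in the label. All animals of both groups had received TNBS once, 0.25 ml into the colon through a catheter under ether, and about 8 cm of distal colon was taken 72 h later; age and genotype are not given in the sources used here. The uninflamed region did not adjoin the inflamed region, so position along the colon and inflammation cannot be told apart. Libraries of control animals, numbered 216 and 217, vehicle-treated by the labels although the study's text also calls control samples untreated, are shown beside these groups and were not tested. The study took the control samples at random places in the colon, so their position may differ from that of either TNBS region.

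The colon wall consists of an epithelium of absorptive colonocytes, mucus-secreting goblet cells and hormone-producing enteroendocrine cells, a lamina propria with fibroblasts, vessels and resident immune cells, and layers of smooth muscle with enteric neurons. In acute colitis, pattern recognition receptors and the transcription factors NF-kB and AP-1 drive the transcription of cytokines and chemokines, and chemokines of the CXC family draw neutrophils out of the blood. Colonocytes absorb salt and water and burn short-chain fatty acids in their mitochondria, and the caudal factors Cdx1 and Cdx2 keep them intestinal in identity. In RNA from whole tissue, fewer cells of a type and less RNA per cell cannot be told apart.

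Total RNA depleted of ribosomal RNA had been sequenced, and the deposited table held read counts for 26319 genes. The uninflamed libraries held 7813797 to 13234808 reads and the inflamed libraries 6734968 to 13792657. Levels are given as CPM, counts scaled to the library size, after TMM normalisation, which scales libraries by the genes that most of them share, and 3 reads corresponded to 0.247 to 0.469 CPM in uninflamed and 0.188 to 0.370 CPM in inflamed libraries. Genes were called at an adjusted p under 0.05 (edgeR quasi-likelihood test with animal as a block) and a difference of at least 2-fold, and log2 differences are inflamed minus uninflamed (I-UI) with their standard error. Ranges of counts or differences over alternatives come from the 19 other analyses that kept both thresholds. The colon markers were present in all uninflamed libraries, with a sum over 15 epithelial genes of 4607 to 8853 CPM. Some libraries stood apart: the inflamed library of animal 218 on the second dimension of the scaling, both regions of animal 221 by their nearness, and single rows with very high values, of which Vta1 held 88332 CPM in the uninflamed library of animal 221 against 38.8 to 58.6 in the other uninflamed libraries. Counts without animal 218 or 221 are given where they moved a printed count by over 1.5 times.

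Of 17182 genes tested, 890 were higher in inflamed regions (5.18%) and 1197 were lower (6.97%), together 12.1%. These shares over all genes belong beside each count of list members below. A count near them does not set a list apart from all genes. A difference in the same direction in all 6 animals was measured for 726 of the higher and 1054 of the lower genes. Inflamed libraries were above the uninflamed library of the same animal in all 6 animals for 11.4% of the genes tested and below it in all 6 for 13.7%. The ranges of the groups did not overlap for 511 of the higher and 587 of the lower genes, beside 9.85% of all genes tested. Changes of at least 16-fold were more frequent upwards, with 32 higher against 8 lower genes, while at 4-fold 236 were higher and 312 lower. The higher genes started from a low level, with a median over genes of 6.74 CPM in uninflamed regions, against 33.6 CPM for the lower genes. Library totals in place of TMM factors moved the median of all genes from 0.04 to 0.29 and the calls to 1514 higher and 812 lower, which raised the higher share of calls from 42.6% to 65.1%.

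The higher genes took 1.01% to 1.86% of the reads in uninflamed libraries and 3.23% to 7.77% in inflamed libraries. The lower genes took 6.67% to 12.6% in uninflamed and 2.93% to 8.34% in inflamed libraries. These shares describe the genes the test had called and are not a test of their own. The distance between the regions of an animal, as leading log2 fold change over 500 genes, ran from 2.88 in animal 221 to 4.33 in animal 220. In animal 221, 1183 genes were at least 2-fold higher and 853 at least 2-fold lower in the inflamed region, the fewest of the 6 animals, while animal 220 had 2261 and 2593. Across genes, the I-UI differences of pairs of animals correlated with r from 0.187 (animals 218 and 220) to 0.772 (animals 222 and 223) over 15 pairs, median 0.541, and genes are not independent replicates. Without animals 218 and 221, an alternative chosen after the data had been seen, 1235 genes were higher and 1528 lower, of which 823 and 1133 were shared with the calls over 6 animals.

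**Figure D1:**
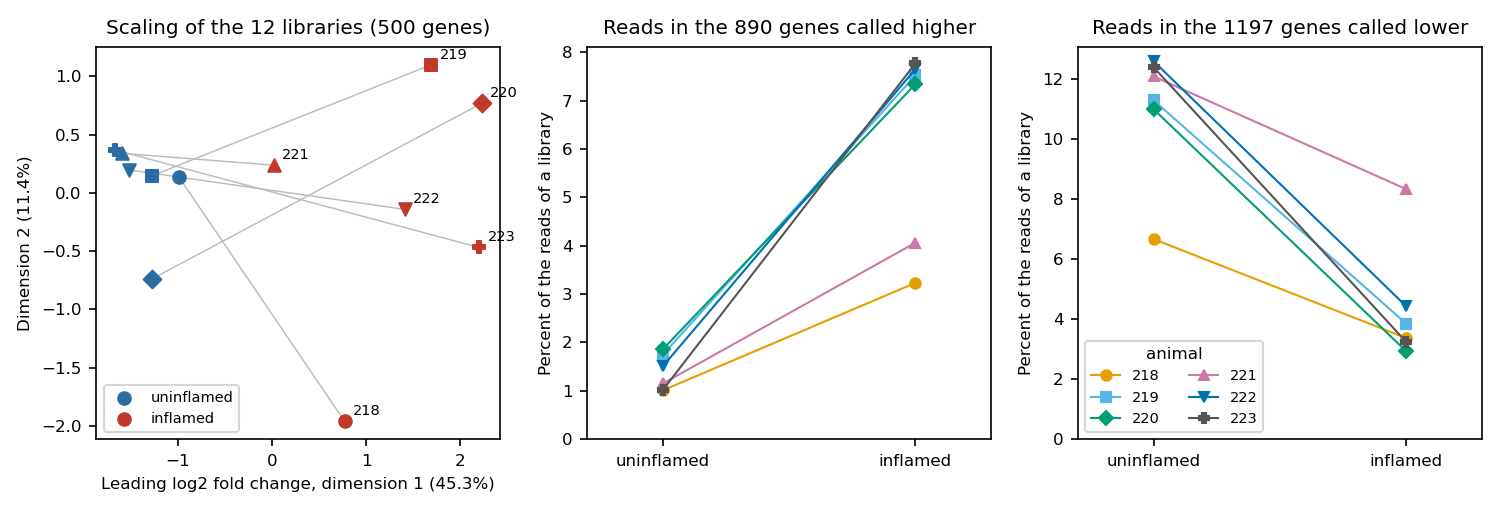
Left, multidimensional scaling of the 12 libraries over 500 genes (leading log2 fold change, dimension 1 with 45.3% and dimension 2 with 11.4% of the variance), with a grey line joining the regions of an animal; middle and right, percent of a library's reads in the genes called higher and lower, 1 line per animal. Inflamed libraries lie to the right of all uninflamed libraries, animal 218 lies lowest on dimension 2, and animal 221 has the shortest way to its uninflamed region.

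The largest rises were of neutrophil chemokines, alarmins and inflammatory enzymes. Cxcl2, a chemokine that attracts neutrophils through the receptor Cxcr2, measured 1.04 to 1.97 CPM (median 1.88) in uninflamed regions and 74.3 to 518 CPM (median 242) in inflamed regions. The groups lay far apart, with animal 221 lowest and animal 219 highest among the inflamed libraries, and the difference was 6.93 ± 0.46 (SE, n = 6 pairs, adjusted p = 0.00018). Nos2, the nitric oxide synthase of inflammation, measured 4.29 to 13.7 CPM (median 7.31) in uninflamed and 295 to 2525 CPM (median 921) in inflamed regions. The groups did not overlap, and Nos2 rose by 6.77 ± 0.68 (adjusted p = 0.00087). A separate row named NOS2, which rose as well, is a near-identical copy, and the split of reads between them is uncertain.

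S100a8 and S100a9 form calprotectin, a metal-binding protein that neutrophils carry in bulk. S100a9 measured 3.74 to 11.1 CPM (median 6.71) in uninflamed and 221 to 1207 CPM (median 664) in inflamed regions, a rise of 6.33 ± 0.47 (adjusted p = 0.00025), and S100a8 rose by 6.35 ± 0.55. Neither gene overlapped between the groups. Ptgs2, the inducible cyclooxygenase of prostaglandin synthesis, measured 4.22 to 14.8 CPM (median 7.13) in uninflamed and 89.5 to 620 CPM (median 296) in inflamed regions. Its groups did not overlap either (5.01 ± 0.48, adjusted p = 0.00063). The other genes of the 15 largest rises were Ccl3, Cxcl1, Plek, Spp1, Il1b, Slpi, Hcar2, Lcn2 and Mmp8. Their log2 differences ran from 4.52 (Mmp8) to 6.12 (Ccl3), and none of them overlapped between groups. In uninflamed regions Ccl3 measured 0.0938 to 0.870 CPM and Cxcl1 0.247 to 1.25 CPM. These values reach down to the level of 3 reads, so the sizes of both differences are uncertain. The controls held 1.64 CPM of Cxcl2, 7.87 of Nos2 and 5.56 of S100a9 on average, within or near the uninflamed range.

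The largest falls were of enzymes, transporters and secreted products of the surface epithelium. Car2, a carbonic anhydrase of colonocytes that supplies protons and bicarbonate for salt absorption, measured 335 to 1128 CPM (median 668) in uninflamed and 13.1 to 74.8 CPM (median 25.9) in inflamed regions. The groups did not overlap, and Car2 fell by 4.54 ± 0.38 on the log2 scale (adjusted p = 0.00034). Its paralogue Ca1 measured 103 to 2138 CPM in uninflamed and 7.40 to 94.5 CPM in inflamed regions, a wider spread within groups, and fell by 4.59 ± 0.79 (adjusted p = 0.0045). Slc9a3, the apical sodium-proton exchanger, measured 80.6 to 580 CPM (median 194) in uninflamed and 5.38 to 19.4 CPM (median 11.8) in inflamed regions. No libraries of the groups overlapped, and the fall of 4.10 ± 0.31 (adjusted p = 0.00025) was present in all 6 animals.

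Pck1, which makes phosphoenolpyruvate for glucose and glycerol synthesis, measured 146 to 254 CPM in uninflamed regions. In inflamed regions it measured 3.90 to 10.5 CPM in 5 libraries and 67.6 in animal 221, still below every uninflamed library (fall of 4.51 ± 0.56, adjusted p = 0.0016). Adamdec1, a secreted metalloprotease-like protein known from gut macrophages and stroma, measured 119 to 259 CPM in uninflamed and 4.12 to 70.9 CPM in inflamed regions, and fell by 3.87 ± 0.43 (adjusted p = 0.0012). It is the member of the 15 largest falls that is not known chiefly from epithelium. The other members were Zg16, Misp, Guca2a, Dpep1, Aqp8, Clca1, Hsd11b2, Muc2, Ckmt1b and Mep1a, with differences from -4.49 (Zg16) to -3.57 (Mep1a), lower in 6 of 6 animals, and overlap between groups in Muc2 alone. In 11 of the 15 falls as plotted, animal 221 held the smallest difference.

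**Figure D2:**
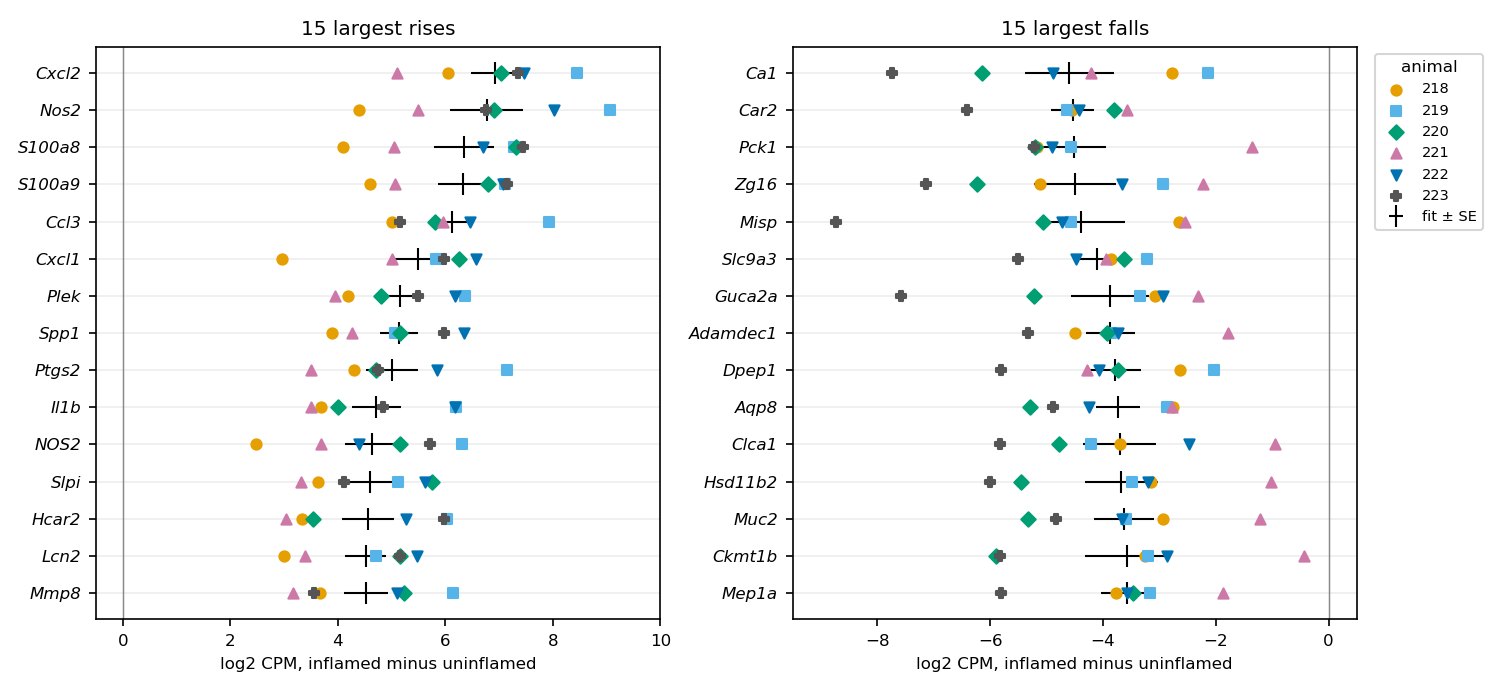
I-UI differences on the log2 CPM scale for the 15 largest rises (left) and the 15 largest falls (right), with 1 symbol per animal and a vertical tick with bar for the fitted difference ± SE. All 6 animals lie on the same side of 0 for each gene, and animals 218 and 221 lie closest to 0 for most rises.

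By absolute level, the largest gains in mean CPM past the threshold were in Fn1, Tnc, Nos2, Col1a1, Vcan, Col12a1, a lysozyme row named Lyc2 and S100a9, and several of these code for the provisional extracellular matrix. Fn1, fibronectin, measured 251 to 414 CPM (median 323) in uninflamed and 355 to 3437 CPM (median 1876) in inflamed regions (2.31 ± 0.41, adjusted p = 0.0045). The groups overlapped through the inflamed region of animal 218 alone, at 355 CPM. Col1a1, a chain of type I collagen, went from 506 ± 288 to 1431 ± 860 CPM (SD, n = 6), with overlap and 5 of 6 animals higher; it was at the edge of the threshold (adjusted p = 0.044) and kept its call in 13 of 19 alternatives, lost without any of animals 219 to 223 (adjusted p from 0.062 to 0.13). The largest losses were in a mitochondrial row named AY172581.3, Mt-co1, Lypd8, Muc2, Krt8, Slc25a3, Clca1 and Myh11. Slc25a3, the mitochondrial phosphate carrier, measured 1102 to 4914 CPM in uninflamed and 499 to 2592 CPM in inflamed regions, overlapped between groups, and kept its call (-1.09 ± 0.28) in 12 of 19 alternatives, lost without animal 220, 221 or 223 (adjusted p from 0.051 to 0.082). Lypd8 lost its call without animal 218, 220 or 222 (adjusted p from 0.051 to 0.061).

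Among epithelial lists, every direction past the threshold was downwards, apart from Cd44 in the crypt list and Tac1 in the enteroendocrine list. All 15 colon epithelium markers fell (100%, beside 6.97% of all genes; median difference -2.74), and 9 to 15 fell over the alternatives, fewest without the filter on low counts. Cdx2, the caudal factor, measured 49.8 to 90.6 CPM (median 70.2) in uninflamed and 2.00 to 32.5 CPM (median 3.90) in inflamed regions. The groups did not overlap (-3.55 ± 0.46, adjusted p = 0.0018), and Cdx1 fell by 2.25 ± 0.29. Of 26 colonocyte transport genes, 18 fell (69.2%), and of 19 goblet cell genes, 15 fell (78.9%), beside 6.97% of all genes. Muc2, the gel-forming mucin, measured 554 to 2637 CPM (median 1681) in uninflamed and 42.0 to 852 CPM (median 93.1) in inflamed regions. The overlap came from the uninflamed region of animal 218 (554 CPM) and the inflamed region of animal 221 (852 CPM), and the fall was 3.63 ± 0.54 (adjusted p = 0.0026).

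Of 16 genes of enteroendocrine cells tested, 5 fell: the hormone genes Pyy and Gcg, the granule proteins Chga and Chgb, and Tph1, the enzyme of serotonin synthesis. The list's median was -0.18. Gcg, the precursor of glucagon-like peptides, measured 17.2 to 52.6 CPM in uninflamed and 0.740 to 15.5 CPM in inflamed regions, without overlap (-3.20 ± 0.47, adjusted p = 0.0027). In the crypt list 4 of 18 fell (Smoc2, Ephb3, Sox9 and Prom1; 1 to 6 over the alternatives, with 2 without animal 219 and 2 without animal 222). Lgr5, the receptor that marks crypt stem cells, was at 22.4 ± 4.75 CPM in uninflamed and 23.2 ± 5.64 CPM in inflamed regions (SD, n = 6) and did not pass (0.04 ± 0.21). It was named after its values had been seen, as were Mki67 and Top2a below. Among 34 genes of DNA replication and mitosis 2 fell, Ccnd1 and Plk1 (5.88%, near the 6.97% of all genes), and 0 rose in edgeR. At an unadjusted p under 0.05 in edgeR 2 were higher, and 1 rose by DESeq2. Plk1 lost its call without animal 219, 220 or 222 (adjusted p from 0.052 to 0.063). Mki67 measured 94.0 ± 46.9 against 103 ± 32.4 CPM, and Top2a 74.7 ± 31.5 against 74.4 ± 20.1 CPM. Of 24 tight junction genes, 15 fell (median -1.54). Ocln, occludin, measured 88.4 to 117 CPM in uninflamed and 15.2 to 66.4 CPM in inflamed regions, without overlap (-1.86 ± 0.27, adjusted p = 0.0021).

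Intestinal transcription factors fell in 17 of 28 tested (median -1.55), among them Hnf4a, Hnf4g, Klf4, Elf3, Isx and Vdr. Hnf4g fell by under 2-fold without animal 223 (-0.97). The promoters of 3 genes of the largest falls, Aqp8 (a water channel), Misp (an actin-bundling protein of the brush border) and Mep1a (a subunit of the metalloprotease meprin), are shown because these genes fell together with Cdx2 and hold the core of the CDX2 motif; they were chosen after the matches had been seen. Each is the 100 bases before the start site, from RefSeq on the build GRCr8, 5′ to 3′ on the strand of the gene, with the match to TTTATNG (either strand) in capitals. Aqp8 lies at chr1:187424343-187424442 (plus strand), Misp at chr7:10537160-10537259 (minus strand) and Mep1a at chr9:24971801-24971900 (plus strand).
Aqp8: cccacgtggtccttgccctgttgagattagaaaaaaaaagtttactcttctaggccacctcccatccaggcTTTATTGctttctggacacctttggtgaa
Misp: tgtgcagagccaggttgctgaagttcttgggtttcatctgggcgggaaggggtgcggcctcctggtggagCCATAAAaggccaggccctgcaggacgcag
Mep1a: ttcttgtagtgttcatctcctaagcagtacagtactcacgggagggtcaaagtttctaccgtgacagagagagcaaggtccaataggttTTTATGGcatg
In windows of 300 bases (250 before to 50 after the start site), TTTATNG was present in 9.38% of the 768 lower genes with a RefSeq promoter, 9.48% of 591 higher genes and 7.86% of all 11214 tested genes with one. The shares of higher and lower genes lay close to each other, so the motif did not separate them. On the reverse strand this motif can share letters with a TATA box (TATAAA), which was present in 10.2% of the lower, 13.7% of the higher and 8.08% of all windows. A match is a description of the letters, not a bound site.

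Many genes of mitochondrial energy metabolism were lower, and the cell types behind these falls were not tested. Of 55 subunits of oxidative phosphorylation encoded in the nucleus, 38 fell and 0 rose (edgeR, median -1.13, with 0 higher at an unadjusted p under 0.05 and 0 with DESeq2 or limma-voom), and 51 were lower in all 6 animals; 21 to 46 fell over the alternatives, fewest with library totals alone. Atp5b, a catalytic subunit of ATP synthase, measured 852 to 1318 CPM (median 1078) in uninflamed and 303 to 672 CPM (median 367) in inflamed regions. The groups did not overlap (-1.45 ± 0.20, adjusted p = 0.0019). In the citric acid cycle 7 of 18 fell (3 to 9 over the alternatives), and of 13 genes encoded in mitochondrial DNA 2 fell, Mt-co1 and ND3, against 0 with library totals alone and 4 without animal 221. Hadh, a dehydrogenase of mitochondrial fatty acid oxidation, measured 55.0 to 128 CPM (median 86.2) in uninflamed and 20.6 to 47.5 CPM (median 24.9) in inflamed regions. It fell by 1.65 ± 0.17 without overlap (adjusted p = 0.00068). Of the 28 genes of fatty acid and ketone metabolism, 12 fell. In glycolysis, Eno2 and Pfkfb3 rose among 20 genes and 0 fell. Pfkfb3, which raises the activator of phosphofructokinase, measured 5.39 to 9.84 CPM in uninflamed and 19.1 to 61.5 CPM in inflamed regions (2.50 ± 0.33, adjusted p = 0.0016). Of 20 hypoxia response genes 8 rose, among them Hif1a (81.0 to 122 against 161 to 602 CPM), and Car9 and Higd1a fell, Car9 by less than 2-fold without animal 219 (-0.93).

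Enzymes that activate and inactivate glucocorticoid moved in opposite directions. Hsd11b1, which regenerates active glucocorticoid, measured 13.2 to 24.4 CPM (median 15.7) in uninflamed and 43.3 to 81.1 CPM (median 62.7) in inflamed regions, a rise of 1.87 ± 0.16 (adjusted p = 0.00034). Hsd11b2, which inactivates it and so protects the mineralocorticoid receptor, measured 65.6 to 187 CPM (median 111) in uninflamed regions. In inflamed regions Hsd11b2 measured 2.71 to 8.73 CPM in 5 libraries and 65.6 in animal 221, and it fell by 3.67 ± 0.64 (adjusted p = 0.0049). The groups of Hsd11b1 did not overlap, and those of Hsd11b2 met at 65.6 CPM, in the uninflamed region of animal 218 and the inflamed region of animal 221. Sgk1, a kinase that mineralocorticoids and glucocorticoids induce, fell by 1.98 ± 0.29 (67.8 to 259 against 14 to 39.7 CPM), and Nr3c2, the mineralocorticoid receptor, was also called lower. In the list of xenobiotic and steroid metabolism, 11 of 33 fell and 2 rose, Hsd11b1 and Nqo1. Among 20 genes of retinoid handling, Aldh1a1, Adh1 and Rbp7 fell. Adh1, an alcohol dehydrogenase that also oxidises retinol, measured 119 to 292 CPM in uninflamed and 6.78 to 82.4 CPM in inflamed regions, without overlap (-3.20 ± 0.53, adjusted p = 0.0039). Rbp7 lost its call without any animal but 219 (adjusted p from 0.059 to 0.11).

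Several chemokine genes that attract neutrophils or monocytes rose, and Cxcl11, Cxcl14, Ccl28 and Cx3cl1 fell. Of 17 CXC chemokines and receptors 7 rose (Cxcl1, Cxcl2, Cxcl3, Cxcl6, Pf4, Cxcr2 and Cxcr4), and Cxcl11 and Cxcl14 fell, with calls kept in 13 and 11 of 18 alternatives. Leaving out animal 219, 220, 222 or 223 ended either call, and leaving out 221 that of Cxcl11, with adjusted p from 0.056 to 0.10 for Cxcl11 and from 0.061 to 0.099 for Cxcl14. Cxcl6 measured 0.0 to 0.411 CPM in uninflamed regions, about the level of 3 reads, and 4.64 to 33.4 CPM in inflamed regions, so no fold is given. Among 23 CC and other chemokines and receptors, 8 rose, including Ccl2 (4.46 to 11.4 against 32.3 to 171 CPM) and Ccl7, which attract monocytes. Ccl11, which attracts eosinophils, rose as well and lost its call without animal 221, 222 or 223 (adjusted p from 0.064 to 0.0805). Ccl28, an epithelial chemokine for plasma cells, measured 15 to 29.7 CPM in uninflamed and 3.06 to 11.5 CPM in inflamed regions, and fell by 1.79 ± 0.28 (adjusted p = 0.0027). Cx3cl1, fractalkine, fell by 1.59 ± 0.28. Neither Ccl28 nor Cx3cl1 overlapped between the groups.

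The promoters of 5 genes that rose are shown because the chemokines among them had the largest rises of their family and all hold a match to the NF-kB consensus within 100 bases before the start site; they too were chosen after the matches had been seen. Tnfaip3 and Nfkbia code for inhibitors of the NF-kB pathway that the pathway itself induces. The sequences are from RefSeq on GRCr8, 5′ to 3′ on the strand of the gene, with the matches in capitals, and all 5 genes lie on the minus strand: Cxcl1 at chr14:17479322-17479421, Cxcl2 at chr14:17467256-17467355, Cxcl6 at chr14:17596418-17596517, Tnfaip3 at chr1:15543980-15544079 and Nfkbia at chr6:78597073-78597172.
Cxcl1: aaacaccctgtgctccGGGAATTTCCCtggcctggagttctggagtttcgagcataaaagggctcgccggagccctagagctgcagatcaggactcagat
Cxcl2: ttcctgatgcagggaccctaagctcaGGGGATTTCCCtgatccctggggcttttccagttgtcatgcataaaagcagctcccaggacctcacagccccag
Cxcl6: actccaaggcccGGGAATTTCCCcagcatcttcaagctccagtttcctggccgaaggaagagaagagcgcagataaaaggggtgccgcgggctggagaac
Tnfaip3: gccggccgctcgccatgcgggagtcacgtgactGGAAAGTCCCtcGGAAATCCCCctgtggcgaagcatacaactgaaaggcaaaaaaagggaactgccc
Nfkbia: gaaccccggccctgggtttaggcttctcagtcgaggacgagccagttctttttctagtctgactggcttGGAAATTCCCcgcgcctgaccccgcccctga
Matches to the NF-kB consensus on either strand were present in 9.48% of the windows of higher genes, 5.34% of lower genes and 4.94% of all tested genes, and matches to the AP-1 motif TGANTCA in 9.81%, 6.77% and 5.50%. These shares are descriptions over the 591, 768 and 11214 genes with a RefSeq promoter. Named genes that fell, such as Dpep1, Foxa3 and Cxcl11, also hold a match to the NF-kB consensus within 100 bases before the start site. So does Tapbp, which was not called. The feedback genes rose in all 6 animals: Nfkbia measured 23.3 to 34.1 CPM in uninflamed and 64.4 to 233 CPM in inflamed regions (2.22 ± 0.28, adjusted p = 0.0014), and Tnfaip3 7.03 to 11.8 and 17.0 to 65.9 CPM (2.08 ± 0.30). Of 22 genes of NF-kB and its feedback 5 rose (Nfkbia, Nfkbid, Nfkbiz, Bcl3 and Zc3h12a), none of them a subunit of the factor, and 0 fell (edgeR, also 0 at an unadjusted p under 0.05 and by DESeq2 or limma-voom). At an unadjusted p under 0.05 in edgeR, 11 genes of the list were higher. Over the alternatives 4 to 8 rose, with 8 with library totals alone. Of 30 AP-1 and immediate early genes, 15 rose (median 1.04), among them Egr1 (2.09 to 8.14 against 16.1 to 54.6 CPM), Fosb, Junb and Zfp36. The product of Zfp36 destabilises cytokine mRNA. Fosb lost its call without animal 222 (adjusted p = 0.0503). Nr4a2 fell, a call kept in 8 of 18 alternatives and lost without any animal but 221 (adjusted p from 0.086 to 0.12).

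Sensors and cytokine families were mixed within themselves. Of 33 pattern recognition genes, 12 rose (36.4%, beside 5.18% of all genes) and 4 fell (12.1%, beside 6.97%). Over the alternatives 3 to 7 fell, with 7 without animal 221. Tlr2, the receptor for bacterial lipopeptides, measured 5.13 to 11.9 CPM (median 8.86) in uninflamed and 27.0 to 109 CPM (median 75.1) in inflamed regions, without overlap (2.89 ± 0.35, adjusted p = 0.0014). Tlr4, the receptor for lipopolysaccharide, measured 72.8 to 92.6 CPM (median 84.3) in uninflamed regions and 19 to 36.4 CPM in 5 inflamed libraries, and 88.6 CPM in the inflamed region of animal 221. It fell by 1.48 ± 0.31 (adjusted p = 0.0088), lower in 5 of 6 animals. Tlr3, the receptor for double-stranded RNA, fell without overlap (21.1 to 29.5 against 5.56 to 17.0 CPM). Nlrp3, an inflammasome sensor, rose from 6.50 to 12.3 CPM in uninflamed to 37.4 to 143 CPM in inflamed regions, while Casp1, the protease it activates, fell (25.0 to 91.9 against 9.61 to 29.2 CPM, -1.49 ± 0.27, adjusted p = 0.0044). The adaptor Pycard was called lower as well (-1.26 ± 0.30), and lost its call without animal 222 (adjusted p = 0.052) or 223 (adjusted p = 0.058).

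Of 15 interleukin-1 family genes, 9 rose, agonists and antagonists among them, and Sigirr fell. Il1b measured 4.87 to 15.1 CPM in uninflamed and 96.4 to 533 CPM in inflamed regions, the receptor antagonist Il1rn 3.26 to 11.1 and 46.8 to 236 CPM, and the decoy receptor Il1r2 5.06 to 10.5 and 38.2 to 177 CPM. None of these overlapped between the groups, and their rises were 4.72 ± 0.46, 4.35 ± 0.51 and 3.79 ± 0.32. Sigirr, an inhibitory receptor of the family, measured 10.9 to 27.8 and 2.47 to 13.1 CPM, with overlap and lower in 5 of 6 animals (-1.35 ± 0.32, adjusted p = 0.016). It lost its call without animal 219 or 223 (adjusted p = 0.052 and 0.058), and 2 genes of the family fell without animal 221. In the interleukin-6 family 8 of 15 rose and 0 fell. Osm, oncostatin M, measured 0.217 to 1.03 CPM in uninflamed and 6.6 to 36 CPM in inflamed regions (4.34 ± 0.30, adjusted p = 0.00018), and its receptor gene Osmr 12.7 to 24.8 and 35.3 to 167 CPM (2.25 ± 0.34). The groups of both lay apart. The lowest uninflamed value of Osm was below the level of 3 reads, so the size of its rise is uncertain. Socs3, the feedback inhibitor of this pathway, rose by 4.02 ± 0.48. Il6 and Il10, named after their values had been seen, measured 0.591 ± 0.247 against 5.75 ± 4.08 CPM and 0.782 against 5.05 CPM, and both were called higher. Of 25 other interleukin and colony stimulating genes 9 rose; Csf3, the neutrophil growth factor, measured at most 0.172 CPM in uninflamed regions, below the level of 3 reads, and 1.48 to 22.1 CPM in inflamed regions. In the TNF superfamily 9 of 35 rose (5 to 12 over the alternatives, with 5 without animal 222 and 5 without animal 223), and Tnfsf10 and Tnfrsf11a fell. Tnfrsf11a dropped under 2-fold without animal 219 (-0.99) or 223 (-0.99).

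The interferon list held few calls, with 4 of 35 genes higher (11.4%, beside 5.18%; Ifit1, Ifit3, Ifitm1 and Ifitm3; 1 to 7 over the alternatives, with 1, 1 and 2 without animal 219, 222 and 223), 1 lower (Cxcl11, lost without any animal but 218 as given above) and a median of 0.04. At an unadjusted p under 0.05, 9 genes of the list were higher and 1 lower. Ifit3, an interferon-induced RNA-binding protein, measured 0.758 to 3.12 CPM (median 2.89) in uninflamed and 19.6 to 96.4 CPM (median 49.9) in inflamed regions, without overlap (4.43 ± 0.36, adjusted p = 0.00033). Usp18, a protease that removes Isg15 from proteins, measured 4.69 to 9.48 and 10.6 to 16.1 CPM without overlap, higher in 6 of 6 animals, and was under the 2-fold limit (0.89 ± 0.17, adjusted p = 0.0054). Bst2, tetherin, was under it as well, higher in 6 of 6 animals with overlap (0.75 ± 0.18, adjusted p = 0.016). Other interferon-induced genes, named after their values had been seen, did not pass: Mx1 measured 10.1 ± 3.46 against 12.8 ± 11.5 CPM and Isg15 7.58 ± 7.28 against 8.54 ± 4.39 CPM (SD, n = 6). Their differences were -0.01 ± 0.25 and 0.38 ± 0.26.

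**Figure D3:**
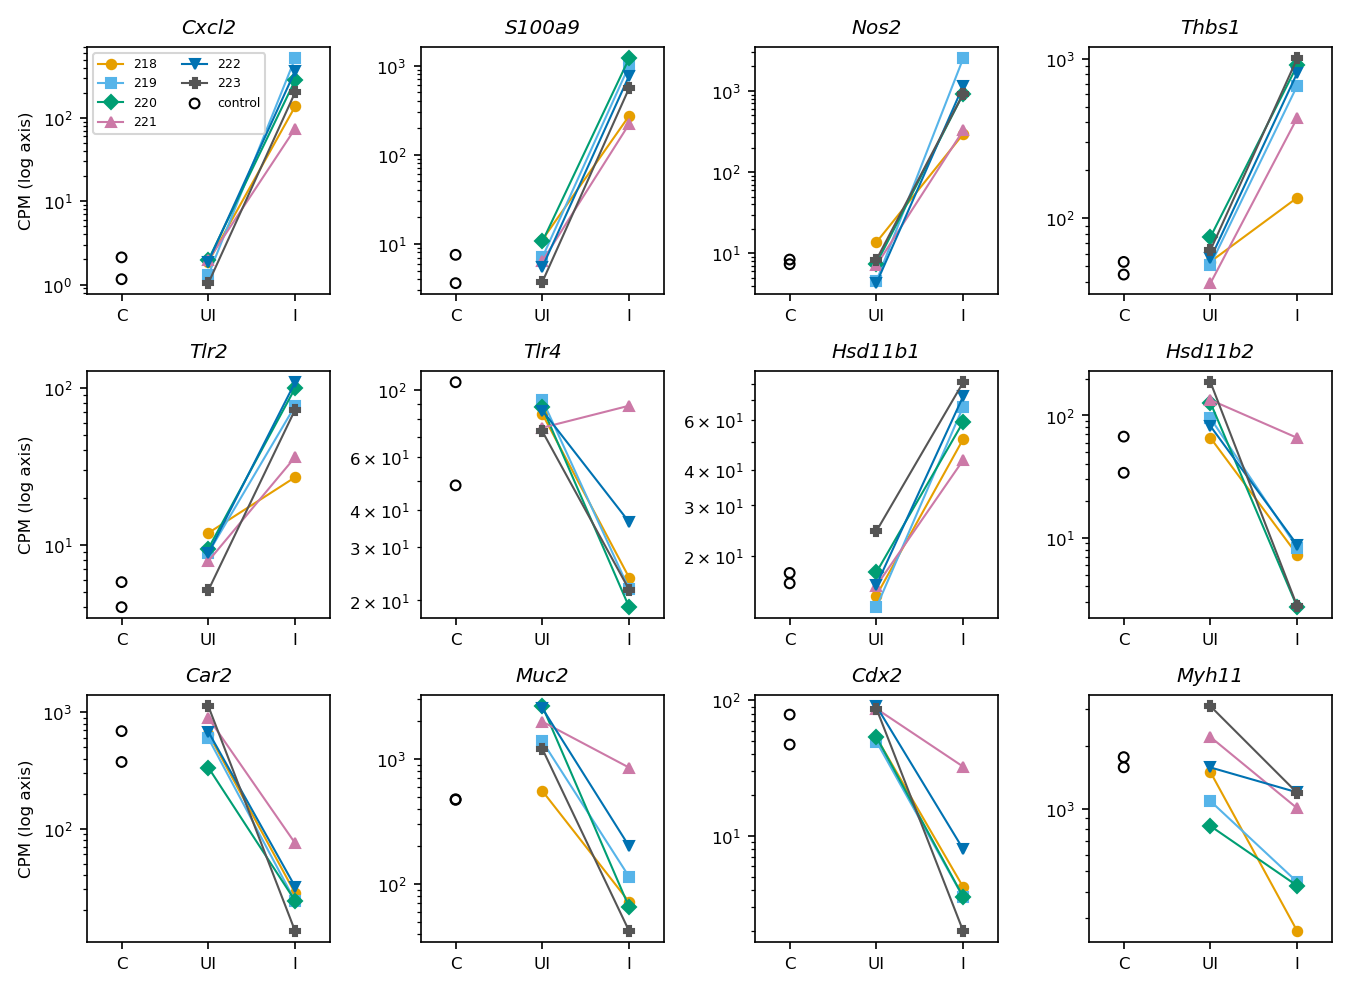
CPM (log axis) of 12 genes in controls (C, n = 2), uninflamed (UI, n = 6) and inflamed regions (I, n = 6), with a line joining the regions of an animal. Tlr2 and Hsd11b1 rise while Tlr4 and Hsd11b2 fall, and the inflamed region of animal 221 is the highest inflamed library for Tlr4 and Hsd11b2 (88.6 and 65.6 CPM).

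Lipid and gas mediators had their inducible enzymes high and a degrading enzyme low. Of 25 genes of prostaglandin and leukotriene metabolism 5 rose (Ptgs2, Ptges, Ptgfr, Alox5ap and Alox15), and Hpgd and Ptges2 fell, Ptges2 with differences of -0.98 to -0.91 without animal 220, 221 or 223. Hpgd, which inactivates prostaglandins, measured 92.2 to 282 CPM (median 175) in uninflamed and 15.4 to 62.8 CPM (median 23.2) in inflamed regions, without overlap (-2.70 ± 0.29, adjusted p = 0.00083). Alox15 measured 1.08 to 2.34 CPM in uninflamed and 5.48 to 35.0 CPM in inflamed regions (3.26 ± 0.47). Of 35 genes for nitric oxide, arginine and oxidants, 11 rose, including Arg1, the arginase that competes with Nos2 for arginine (2.52 to 4.84 against 14.1 to 68.0 CPM), and Ncf1, a subunit of the phagocyte oxidase (5.44 to 22.7 against 19.1 to 57.4 CPM). The groups of Arg1 did not overlap and those of Ncf1 did. Of the genes that fell in this list, Noxa1 serves the epithelial oxidase Nox1 and kept its call in every alternative, while Duox2 and Noxo1 kept theirs in 11 of 19 and 11 of 18. Duox2 lost its call without animal 219, 220, 222 or 223 (adjusted p from 0.061 to 0.12) and Noxo1 without any animal but 218 (adjusted p from 0.077 to 0.11).

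Markers of leucocytes differed by lineage. Of 19 neutrophil markers tested, 14 rose (73.7%, beside 5.18% of all genes; median 3.57). Their summed level ran from 64.5 to 149 CPM in uninflamed and from 571 (animal 221) to 2703 CPM (animal 220) in inflamed regions. Trem1, an amplifying receptor of neutrophils and monocytes, measured 0.600 to 1.81 CPM in uninflamed and 9.17 to 37.0 CPM in inflamed regions (4.05 ± 0.30, adjusted p = 0.00019). The groups did not overlap. Mpo, a granule enzyme gene transcribed in bone marrow precursors and named after its value had been seen, measured 0.973 ± 0.507 against 1.27 ± 0.369 CPM and did not pass. Cd177 was the exception that fell, with overlap and a call kept in 9 of 18 alternatives, lost without animal 218, 219, 220, 222 or 223 (adjusted p from 0.069 to 0.14).

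Of 29 monocyte and macrophage markers, 12 rose and 0 fell (median 0.69). Spp1, osteopontin, measured 1.59 to 5.00 CPM in uninflamed and 34.1 to 190 CPM in inflamed regions (5.13 ± 0.35, adjusted p = 0.00018), and Chi3l1, a chitinase-like protein, 4.29 to 30.6 and 31.1 to 108 CPM. Neither overlapped between the groups. Markers of tissue-resident macrophages, named after their values had been seen, did not pass: Cd163 measured 54.3 ± 15.1 against 71.7 ± 33.4 CPM and Mrc1 70.0 ± 20 against 115 ± 45.1 CPM. The mast cell and eosinophil list had Srgn and Siglec5 higher and Mcpt10 and Fcer1a lower among 12 genes. Mcpt10, a mast cell protease, measured 3.95 to 11 CPM in uninflamed and 0.247 to 4.32 CPM in inflamed regions (-2.40 ± 0.46, adjusted p = 0.0067), while Fcer1a kept its call in 10 of 18 alternatives, lost without any animal but 221 (adjusted p from 0.053 to 0.11), and Siglec5 in 15 of 18, lost without animal 221, 222 or 223 (adjusted p from 0.052 to 0.067).

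Lymphocyte lists held few calls. Among 33 T and NK cell markers Cd3g alone rose in the paired fit over 6 animals, beside 5.18% of all genes, and 1 to 5 rose over the alternatives, with 5 without animal 220, 2 without animal 221 and 4 with exactTest. Cd3g, a chain of the T cell receptor complex, measured 0.650 to 3.48 CPM (median 1.92) in uninflamed and 8.73 to 115 CPM (median 23.4) in inflamed regions, without overlap (3.87 ± 0.46, adjusted p = 0.0014). The other chains of the complex, named after their values had been seen, did not pass: Cd3d measured 1.03 ± 0.827 against 3.75 ± 5.70 CPM, Cd3e 2.88 ± 2.09 against 5.94 ± 9.32 CPM and Cd247 17.4 ± 12.9 against 27.4 ± 23.5 CPM. Among 19 B and plasma cell markers 0 rose and 1 fell, Pigr, the epithelial transporter of IgA, so that the list's only call lies outside those cells. In the edgeR test 1 gene of this list was higher at an unadjusted p under 0.05, and 0 passed with limma-voom, 1 with DESeq2, 2 with exactTest, 2 without animal 220 and 1 without animals 218 and 221.

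Animal 218 differed from the others in the lymphocyte lists. Its median I-UI difference was 2.74 for B and plasma cell markers, 1.76 for T and NK cell markers, 1.85 for DNA replication and 1.20 for MHC genes, where the medians of the other 5 animals ran from -1.46 to 1.19, -0.57 to 0.48, -0.34 to 0.27 and -1.01 to -0.08. The summed level of the B and plasma cell markers without Pigr was 257 CPM in its uninflamed and 1297 CPM in its inflamed region, against 256 to 583 and 300 to 497 CPM in the other animals. Pax5, the B cell factor, measured 160 CPM in its inflamed region and 23.9 to 51.9 CPM in the others. Igkc, the kappa light chain constant region, measured 768 CPM there and 15.8 to 250 CPM in the others, and 277 to 865 CPM in uninflamed regions. The inflamed library of animal 218 also had the lowest summed smooth muscle level (2231 against 4458 to 7655 CPM) and a rise of red blood cell genes from 43.6 to 54.9 CPM, the smallest of the 6 animals. The part of lymphoid tissue or sampling depth in these values was not tested.

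Vessel, matrix and clotting genes rose in part of each list. Of 30 endothelial genes 14 rose and 0 fell (median 1.00), among them Pecam1, Cdh5, Kdr, Icam1 and Vcam1. Over the alternatives 8 to 18 rose, with 8 without animal 223. Vcam1 lost its call without animal 218, 219, 222 or 223 (adjusted p from 0.097 to 0.13). Pecam1 lost its call without animal 218 (0.85), 222 (adjusted p = 0.061) or 223 (adjusted p = 0.066). Kdr rose by under 2-fold without animal 223 (0.98). Apln, the apelin peptide of sprouting vessels, measured 0.217 to 0.905 CPM in uninflamed and 1.90 to 4.44 CPM in inflamed regions (2.51 ± 0.27, adjusted p = 0.00087), and its receptor Aplnr 1.09 to 3.62 and 2.53 to 11.7 CPM. The groups of Apln lay apart and those of Aplnr overlapped. The lowest uninflamed value of Apln was below the level of 3 reads, so the size of its rise is uncertain. Of 45 fibroblast and matrix genes 20 rose (median 0.96) and Bmp4 fell. Thbs1, thrombospondin, measured 39.3 to 76.6 CPM in uninflamed and 135 to 1008 CPM in inflamed regions, with 135 CPM in animal 218 (3.36 ± 0.37, adjusted p = 0.00087). Tnc, tenascin C, measured 99.7 to 258 CPM in uninflamed regions, 1000 to 2013 CPM in 5 inflamed libraries and 307 CPM in animal 218. The groups of Thbs1 and Tnc did not overlap. Lum and Dcn, proteoglycans of resting fibroblasts named after their values had been seen, did not pass (117 ± 41.9 against 168 ± 63.2 CPM and 221 ± 54.5 against 379 ± 126 CPM).

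Among 27 matrix proteases and inhibitors 12 rose. Mmp9 measured 0.656 to 3.25 CPM in uninflamed and 8.81 to 52.8 CPM in inflamed regions (4.01 ± 0.40), and Adam8 2.00 to 5.94 and 25.8 to 120 CPM (3.95 ± 0.36). Mmp15, a membrane-bound protease, fell by 1.37 ± 0.21. Of 23 genes of coagulation and the plasminogen system, 9 rose. The plasminogen activator gene Plau measured 5.16 to 14.4 CPM (median 8.63) in uninflamed and 11.6 to 75.6 CPM (median 33.7) in inflamed regions, with overlap (1.88 ± 0.23, adjusted p = 0.0013). Its receptor Plaur measured 4.76 to 7.46 and 15.4 to 65.4 CPM, without overlap (2.45 ± 0.26, adjusted p = 0.00083). In complement 6 of 26 rose (23.1%, beside 5.18% of all genes), among them C3 (10.3 to 65.3 against 63.5 to 582 CPM). Over the alternatives 4 to 10 rose, with 10 without animals 218 and 221. C4b and C7 fell (7.69%, near the 6.97% of all genes), and C4b lost its call without animal 219 (-0.95). Globin genes rose, 4 of 7 red blood cell genes (Hba1, Hba2, Hbb and Hbb-b1), and the list's summed level went from 34.5 to 50.7 CPM in uninflamed to 54.9 to 360 CPM in inflamed regions. The erythroid gene Alas2 did not pass. The part of blood in the vessels or tissue was not tested.

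Smooth muscle genes fell in 13 of 22 tested (median -1.15), with 8 to 13 over the alternatives and 8 without animal 218. Synpo2, an actin-binding protein of smooth muscle, measured 454 to 1514 CPM in uninflamed and 193 to 427 CPM in inflamed regions, without overlap (-1.38 ± 0.19, adjusted p = 0.0019). Myh11, the smooth muscle myosin, measured 825 to 3091 CPM in uninflamed and 259 to 1196 CPM in inflamed regions, overlapped between groups, and lost its call without the block for animal. Des, named after its value had been seen, measured 748 ± 247 against 635 ± 262 CPM and did not pass. Among 24 genes of enteric neurons and glia Tubb3, Vip and Tac1 rose and Erbb3, which epithelium also expresses, fell. Vip, the vasoactive intestinal peptide, measured 18.5 ± 9.64 against 62.3 ± 32.2 CPM (1.65 ± 0.46, adjusted p = 0.033), higher in 5 of 6 animals with overlap, and lost its call without any of animals 219 to 223 (adjusted p from 0.065 to 0.11). Tac1, the precursor of substance P, measured 1.46 to 3.37 and 1.79 to 18.6 CPM. Tac1 was higher in 5 of 6 animals and lost its call without animal 222 (adjusted p = 0.0504), where 1 gene of the list rose.

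**Figure D4:**
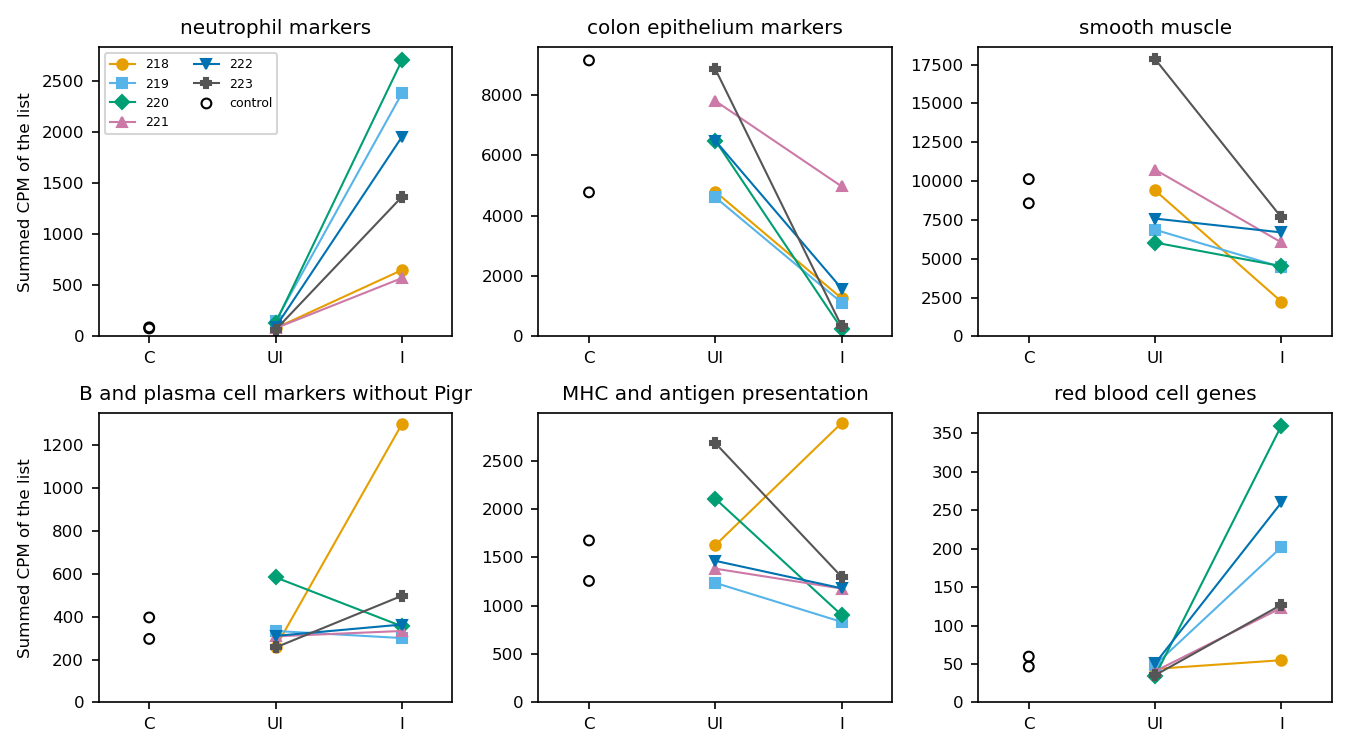
Summed CPM of 6 marker lists in controls (C), uninflamed (UI) and inflamed regions (I), with 1 symbol per animal and lines joining the regions of an animal; each axis starts at 0. Neutrophil sums rise in all 6 animals, epithelial sums fall least in animal 221 (7799 to 4967 CPM), and the B and plasma cell sum is high in the inflamed region of animal 218 (1297 CPM).

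Growth factor genes moved both ways, with 6 of 32 higher (2 to 6 over the alternatives, with 2, 2 and 3 without animal 219, 222 and 223) and 5 lower. Ereg, epiregulin, measured 1.87 to 5.31 CPM in uninflamed and 3.69 to 24.1 CPM in inflamed regions (2.02 ± 0.25, adjusted p = 0.0013), while the receptors Erbb2 and Erbb3 fell by 1.78 ± 0.24 and 1.78 ± 0.25 and Egf by 1.35 ± 0.22. In the list of TGF-beta, BMP and activin, Tgfb1, Inhba, Inhbb, Grem1 and Gdf15 rose and Bmp2, Bmp4 and Bmpr1a fell among 27 genes. Inhba, the activin A subunit, measured 2.27 to 4.22 CPM in uninflamed and 5.48 to 34.1 CPM in inflamed regions. The groups of Inhba did not overlap. Bmp2 lost its call without animal 218 (-0.95), Bmpr1a without animal 219 (-0.93) and Bmp4 without animal 218, 220, 222 or 223 (-1.35 to -0.96). Grem1 lost its call without animal 221, 222 or 223 (adjusted p from 0.062 to 0.081). Among 19 heat shock chaperones Hspa1a, Hspa1b, Hsph1 and Dnaja1 rose, and Hspa1b measured 4.98 to 11 against 16 to 285 CPM; Hspa1a and Hspa1b are near-identical copies and their split is uncertain. Of 35 ribosomal protein genes 0 rose and 0 fell (edgeR, median -0.34, with 0 higher and 9 lower at an unadjusted p under 0.05, and 0 in every alternative that kept both thresholds).

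Genes that mark position along the gut also differed. Of 14 tested, Hoxd10 and Hoxd13 rose, and Cdx2, given above, was among the genes that fell. Hoxd13, named after its value had been seen, measured 60.8 CPM in controls, 2.98 ± 2.61 CPM in uninflamed and 13 ± 6.22 CPM in inflamed regions (2.25 ± 0.56, adjusted p = 0.022). The number of position genes that rose ran from 0 to 4 over the alternatives, with 4, 1, 1 and 0 without animal 218, 221, 222 and 223. The part of position along the colon in the I-UI differences was not tested. Of 16 genes used as references in RT-PCR, 14 did not pass and Sdha and Tfrc fell; Actb measured 1306 ± 312 against 1803 ± 245 CPM and Gapdh 107 ± 39.2 against 146 ± 30.8 CPM.

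Rows of miRNA genes numbered 434, and 12 passed the filter. Beside 5.18% of all genes higher and 6.97% lower, 0 of the 12 rose (edgeR, also 0 at an unadjusted p under 0.05) and 5 fell. The mature sequences of 4 of them are shown because the let-7 members share a seed, the bases that pair with target mRNA; RefSeq, GRCr8, 5′ to 3′, seed (bases 2 to 8) in capitals. Mirlet7b lies on chromosome 7, Mirlet7c-1 on chromosome 11, Mir375 on chromosome 9 and Mir145 on chromosome 18.
rno-let-7b-5p: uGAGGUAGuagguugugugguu
rno-let-7c-5p: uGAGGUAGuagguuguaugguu
rno-miR-375-3p: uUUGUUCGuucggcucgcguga
rno-miR-145-5p: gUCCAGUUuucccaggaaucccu
Reads of 50 bases are longer than a mature miRNA, so these counts are of the precursor region, and the arms cannot be told apart. Mir145, known from smooth muscle, measured 12.6 to 127 CPM in uninflamed and 4.19 to 15.5 CPM in inflamed regions (-2.09 ± 0.22, adjusted p = 0.00083). The groups overlapped, through the uninflamed region of animal 220. Mir375, known from enteroendocrine and other secretory cells, measured 0.957 to 3.94 CPM in uninflamed regions, and in inflamed regions 4 of 6 libraries were at 0 and the others at 0.105 and 0.206 CPM, below the level of 3 reads, so its fitted difference is no bound. Mirlet7b measured 2.39 to 23.0 CPM in uninflamed and 0.937 to 6.26 CPM in inflamed regions (-2.02 ± 0.33), and Mirlet7c-1 0.576 to 3.92 and 0.247 to 1.37 CPM (-1.76 ± 0.33). Both let-7 rows were lower in 6 of 6 animals although their groups overlapped. The lowest inflamed value of Mirlet7c-1 was below the level of 3 reads, so the size of its fall is uncertain. The other row that fell was Mir3555 (-1.03 ± 0.28, adjusted p = 0.026).

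Control colon lay on the uninflamed side for most of the genes called. The mean of the controls was nearer, on the log2 scale, to the uninflamed than to the inflamed mean for 850 of the 890 higher and 1053 of the 1197 lower genes. Both controls were below the lowest inflamed library for 729 of the higher genes and above the highest inflamed library for 773 of the lower genes. These counts describe genes chosen for their I-UI difference and carry no test, since 2 control libraries give little information on their spread. Aqp8, among the genes named above, lay above both regions in the controls, with a mean of 152 CPM against 6.09 to 42.3 CPM in uninflamed and 0.247 to 6.05 CPM in inflamed regions. Control samples came from random places in the colon, so treatment and position cannot be told apart in these levels.

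**Figure D5:**
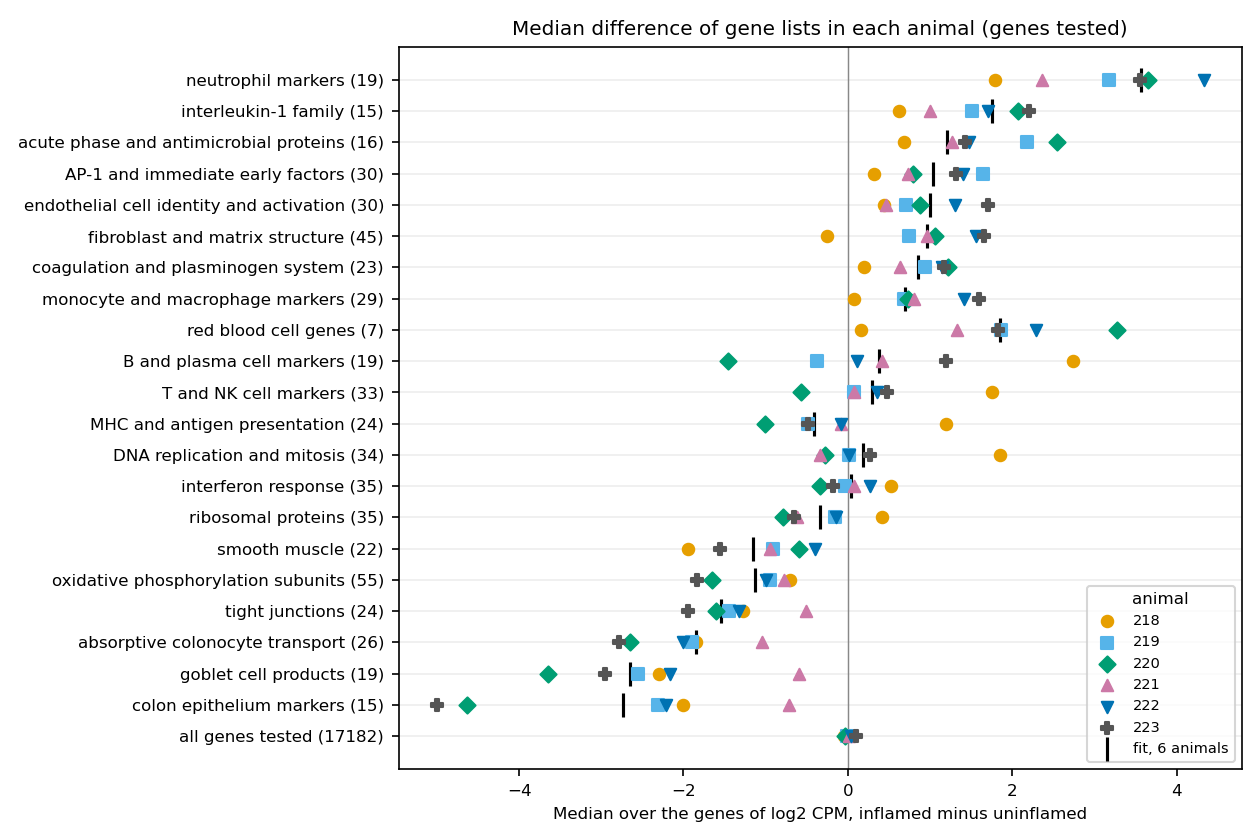
Median I-UI difference (log2 CPM) over the genes tested of each list, with 1 symbol per animal and a black tick for the fit over 6 animals; the number of genes is in brackets. Neutrophil markers are positive and epithelial lists negative in all 6 animals, while B, T, MHC and DNA replication lists are highest in animal 218 (2.74, 1.76, 1.20 and 1.85).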

How the data were processed

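Per the labels and the study's methods, the authors depleted ribosomal RNA from colon total RNA (RiboMinus), fragmented it with RNase III, sequenced reads of 50 bases on a SOLiD 5500xl and aligned them to Rnor_5.0 (Ensembl 77) with CLC Genomics Workbench 7.5.1, allowing 2 mismatches and 10 places per read at length and similarity fractions of 0.8. They removed reads on ribosomal RNA genes and deposited read counts per gene, which were not normalised. Reads that match several places make counts of near-identical genes uncertain, and no strand setting is stated, so reads of antisense or overlapping genes cannot be told apart.

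Here the counts of the 12 TNBS libraries were tested with edgeR 4.0.16 (R 4.3.3; TMM factors over 14 libraries, filterByExpr with a minimum count of 10, robust quasi-likelihood fit, animal as block, Benjamini-Hochberg over 17182 genes), with a prior count of 2 for log2 CPM. Library totals ran from 6734968 to 13792657 reads and TMM factors from 0.642 to 1.23. The study itself used edgeR's exactTest without pairing, which was an alternative here, as were DESeq2 1.42.0, limma-voom (limma 3.58.1), other factors, filters and thresholds, and leaving out each animal. The pairing comes from the labels, which put both regions in the same animal. Deviations of same-animal libraries from their group means correlated with r from -0.125 to 0.21. For 2 of the 6 uninflamed libraries, r was highest with the inflamed library of the same animal. With the inflamed library of another animal r reached 0.226, for the uninflamed library of animal 220. No pair of libraries of the same region was alike within sampling noise (lowest chi-square per degree of freedom 29.4). Pairs across regions and pairs with controls were not compared in this way. P-values measure the spread between 6 animals.

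The members, the 57 gene lists and the tests were chosen with earlier results of these data known. Of 1475 list symbols, 68 had no match and 1274 were tested; 1 list of non-coding RNAs had no tested gene. Genes were named by rule: the 15 largest rises and falls with a symbol, a mean of at least 2 log2 CPM and the same direction in 6 animals; the 8 largest gains and losses in CPM; the 3 smallest adjusted p of each list; the 6 largest SDs over animals (at least 5 log2 CPM); the 5 smallest p; and list members past the threshold against their list. Other names are marked in the text or stand in counts of called members. The procedure was tested on simulated data. Symbols of 25 genes had been turned into dates and these rows were not named. Promoters and miRNAs come from RefSeq (GRCr8), and no coordinates of the files were used. Some genes that met these rules are not reported here.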

Additional observations from a re-analysis of the deposited data

Results flagged for a closer look

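In 104 groups of 6 libraries over 52 named genes, 9 single libraries (8.65%) lay farther from the other 5 than Dixon's 95% limit for 6 values allows, on the log2 scale, and chance flags about 1 in 20 groups. Of these genes, 6 had been chosen for a large SD over animals and gave 5 of the 9; the other 46 gave 4 in 92 groups (4.35%). Rows of very high value in 1 library were Vta1 in the uninflamed region of animal 221 (88332 CPM, others 38.8 to 58.6), Fam149b1 in the inflamed region of animal 221 (21124 CPM, others 12.5 to 21.7), Bsdc1 in the inflamed region of animal 219 (15315 CPM, others 19.9 to 44.5) and Tmem132c in the uninflamed region of animal 223 (7178 CPM, others 73.2 to 175). None of these 4 rows was called in the edgeR fit with animal as a block, but all 4 were called in the fits without the block and with exactTest, with log2 differences of -8.19, 7.14, 6.01 and -3.95 in exactTest. Vta1 was also higher in the inflamed region of animal 219 (115 CPM, others 31.8 to 44.7). Without the Vta1 row, an alternative chosen after the data had been seen, 888 genes were higher and 1197 lower.

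Among called genes, the inflamed region of animal 221 held 65.6 CPM of Hsd11b2 (others 2.71 to 8.73) and 67.6 CPM of Pck1 (others 3.90 to 10.5), next to a summed epithelial level of 4967 CPM in that library and 253 to 1585 CPM in the other inflamed libraries. The inflamed region of animal 218 held 307 CPM of Tnc (others 1000 to 2013), and the uninflamed region of animal 219 held 14.1 CPM of Lcn2 (others 3.69 to 6.09). The causes were not tested.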

How the results depend on the processing

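The counts of 890 higher and 1197 lower genes stayed within 1.5 times under most alternatives. The exceptions were library totals alone (1514 higher, with 812 lower), the adjusted p without the 2-fold limit (1654 higher and 2150 lower) and glmTreat, which tests against 2-fold itself (240 and 249). The fits without the replicate block gave 1035 higher and 1163 lower, of which 863 and 1094 were shared with the paired fit, and edgeR's exactTest without the block gave 1226 and 1340. DESeq2 with the block gave 1001 and 1368, limma-voom 967 and 1236, no filter on low counts 930 and 1216 of 25288 genes tested, and a minimum count of 50 685 and 1048 of 12956. Without 1 animal at a time, 636 (without animal 223) to 1083 (without animal 218) genes were higher and 932 (without 223) to 1356 (without 221) lower. Of 229 named genes fitted, 203 were called, 161 of them in every alternative at the same thresholds, and none of the called genes changed direction in any alternative run. The cause of the differences between alternatives was not tested beyond their construction. At 3 reads, levels below 0.188 to 0.469 CPM could not be told from 0, by counting error alone.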
